A study of Mus musculus with 12 samples.

Results

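The interferon-stimulated genes examined here are 41 mouse genes, a fixed list of symbols chosen with earlier results of these data known. They were looked up by NCBI gene ID in the deposited count tables, where all 41 were found among 24028 genes. Their RNA was measured in 12 libraries of C57BL/6 bone marrow cells, 3 in each of 4 groups. The iMLL-ENL total group was whole bone marrow of mice with a knocked-in MLL-ENL allele that doxycycline induces, a fusion of MLL (gene Kmt2a) with ENL (gene Mllt1), and that were kept on doxycycline until acute leukemia. The wt LSK group was marrow of control mice, taken through a lineage depletion and then a sort on c-Kit and Sca-1 for a fraction that holds hematopoietic stem and progenitor cells. The B220 HIGH and B220 LOW groups were leukemic marrow cells of iMLL-ENL mice on doxycycline, sorted by the level of B220, an isoform of the surface protein CD45. The labels give 3 animals per genotype but do not tie a library to an animal, so p-values measure the spread between these libraries, and leukemic libraries may share mice. They give neither age nor the cells in which the inducible allele is active, and do not say whether control mice received doxycycline. Genotype, doxycycline, leukemia and cell fraction all differ between iMLL-ENL total and wt LSK and cannot be told apart.

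Interferons are secreted proteins that cells make when they sense foreign nucleic acid, and most cells carry receptors for them. Type I interferons act through IFNAR1 and IFNAR2 and the kinases JAK1 and TYK2 to form a complex that contains STAT2 and IRF9 and binds the interferon-stimulated response element in the promoters of its targets. Interferon gamma acts through IFNGR1 and IFNGR2, and many of its targets carry the gamma-activated site. Blood stem cells are known to hold a set of these targets active without infection, and to enter the cycle when exposed to interferon.

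Promoter windows of some members that fell, and of Gbp3, are printed here because they hold the element that many of these genes have in common. RefSeq windows of build GRCm38.p6, from 250 bases before to 50 bases after the annotated start, were given for 32 of the 41 members. Those without a window were Mx1, Mx2, Usp18, Oas2, Rtp4, Parp9, Parp14, Ifi27 and Zbp1. The core of the response element was searched on both strands as GAAA, any pair of bases and GAAA again, which the opposite strand reads as TTTC, any pair of bases and TTTC. It stood in 16 of the 32 members, against 708 of 17965 genes with a window (3.94%). The gamma-activated site TTCNNNGAA (N is any base) stood in 8 of the 32, against 9.17% of all windows. The sequences run 5′ to 3′ on the strand of the gene, from 160 bases before to 20 bases after the start, with matches of the response element core in capitals. Rsad2 lies at chr12:26456433-26456612 (minus strand), Ifit1 at chr19:34640729-34640908 (plus), Gbp2 at chr3:142620503-142620682 (plus), Oas3 at chr5:120777640-120777819 (minus), Isg15 at chr4:156200799-156200978 (minus) and Gbp3 at chr3:142559884-142560063 (plus).
Rsad2: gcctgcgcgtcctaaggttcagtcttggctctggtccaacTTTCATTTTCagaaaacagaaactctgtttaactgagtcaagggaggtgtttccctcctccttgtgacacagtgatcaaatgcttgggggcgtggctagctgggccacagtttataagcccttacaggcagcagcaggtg
Ifit1: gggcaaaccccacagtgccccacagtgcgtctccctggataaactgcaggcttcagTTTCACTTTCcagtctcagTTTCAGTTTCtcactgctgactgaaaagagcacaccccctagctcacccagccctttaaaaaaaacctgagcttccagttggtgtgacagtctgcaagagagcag
Gbp2: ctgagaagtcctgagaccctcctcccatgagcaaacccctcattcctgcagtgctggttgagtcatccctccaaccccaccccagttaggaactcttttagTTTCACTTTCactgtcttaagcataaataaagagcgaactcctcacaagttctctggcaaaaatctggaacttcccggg
Oas3: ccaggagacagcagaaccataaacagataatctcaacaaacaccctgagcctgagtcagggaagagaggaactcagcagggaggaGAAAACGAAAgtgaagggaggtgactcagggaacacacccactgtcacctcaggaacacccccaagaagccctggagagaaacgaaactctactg
Isg15: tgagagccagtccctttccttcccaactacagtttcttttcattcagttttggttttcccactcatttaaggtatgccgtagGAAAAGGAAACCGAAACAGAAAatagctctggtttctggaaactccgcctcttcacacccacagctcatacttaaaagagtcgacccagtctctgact
Gbp3: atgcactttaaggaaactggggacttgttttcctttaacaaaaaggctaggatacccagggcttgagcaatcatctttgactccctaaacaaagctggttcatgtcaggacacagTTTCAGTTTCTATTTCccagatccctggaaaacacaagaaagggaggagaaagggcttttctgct
Ifit1 held 2 separate matches, Gbp3 held 2 that overlap and Isg15 held 3 that overlap, while Rsad2, Gbp2 and Oas3 each held 1. Gbp3 is shown as a member with the element that did not fall.

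Library totals were 18001563 to 22706882 counts in iMLL-ENL total, 18227843 to 19607722 in wt LSK, 10921521 to 20069503 in B220 HIGH and 13441696 to 16626820 in B220 LOW. Levels are given as CPM, the counts of a gene scaled by the library total. Kmt2a had 461 ± 124 CPM in iMLL-ENL total, against 1337 ± 195 CPM in wt LSK (SD, n = 3 each, log2 fold change -1.39, SE 0.26, edgeR adjusted p = 0.00446). Mllt1 had 33.4 ± 6.69 CPM in iMLL-ENL total, against 42.7 ± 2.23 CPM in wt LSK (-0.20, SE 0.23, adjusted p = 0.542), and counts per gene do not separate the fusion from its partners. Ptprc, the gene of CD45, had 562 ± 33.7 CPM in B220 HIGH and 427 ± 185 CPM in B220 LOW (0.47, SE 0.31, adjusted p = 0.852), which does not check the sort since counts per gene do not separate isoforms. Across 6 marker genes of stem cells and LSK, summed levels were 157 to 239 CPM in iMLL-ENL total, and 3070 to 3515 CPM in wt LSK, with none at 0 in either group. Across 7 myeloid markers, none at 0 in either group, they were 6239 to 22320 CPM in iMLL-ENL total, against 1293 to 2123 CPM in wt LSK. The sums of 4 erythroid markers were 0.417 to 1.19 CPM in iMLL-ENL total, against 536 to 599 CPM in wt LSK. Those of 5 conventional dendritic cell markers were 10.7 to 42.7 CPM in iMLL-ENL total and 361 to 526 CPM in wt LSK, with no marker of either list at 0. Flt3, which is also among the stem cell and LSK markers, made up most of the latter sums in wt LSK (386, 488 and 339 CPM). Of the rest, Clec9a and Zbtb46 were lower in each iMLL-ENL total library, while Xcr1 and Itgax overlapped between the groups. The 8 markers of plasmacytoid dendritic cells, the main producers of type I interferon, summed to 195 to 293 CPM in iMLL-ENL total, against 355 to 649 CPM in wt LSK, with none at 0. Tcf4 made up most of these sums, with 282, 175 and 274 CPM in iMLL-ENL total, against 349, 479 and 334 CPM in wt LSK. Siglech had 2.27, 4.89 and 0.749 CPM in iMLL-ENL total, against 2.31, 74.7 and 5.41 CPM in wt LSK. Il3ra alone had the higher mean in iMLL-ENL total. The 5 macrophage markers summed to 135 to 599 CPM in iMLL-ENL total, with none at 0, and to 11.02 to 42.8 CPM in wt LSK, with C1qa at 0. The 6 B cell markers, none at 0, summed to 19.1 to 36.1 CPM in iMLL-ENL total and 38.1 to 155 CPM in wt LSK, where replicate 2 was the highest. Ly6a, which encodes the Sca-1 used in the sort and is itself known to respond to interferon, had 1.71, 2.22 and 1.497 CPM in iMLL-ENL total, against 32.5, 82.1 and 45.4 CPM in wt LSK, and is not read as a result. The part of the sort and of these cell types in the results below was not tested, and in bulk RNA fewer cells of a type cannot be told apart from less RNA per cell.

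Leukemic marrow held less RNA of most interferon-stimulated genes than wt LSK cells did. The 41 members together made up 1679, 1449 and 1351 CPM in iMLL-ENL total, against 3347, 3275 and 3480 CPM in wt LSK. All 41 passed the filter on low counts, and 25 were lower and 1 was higher in iMLL-ENL total at an adjusted p under 0.05, while 15 did not pass. Among all 13811 genes tested, 15.1% were called lower and 15.5% higher. The members' median log2 fold change was -1.38, against 0.05 over all genes, and 38 of the 41 estimates were negative. Since the list was chosen with earlier results of these data known, the shares given here describe the members and do not test an excess. Every iMLL-ENL total library was below every wt LSK library for 32 members, which was so for 29.5% of all genes. When the fold change itself had to exceed 2, 14 members were called lower, against 8.54% of all genes, and Sp100, the one that rose, was not called.

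**Figure D1:**
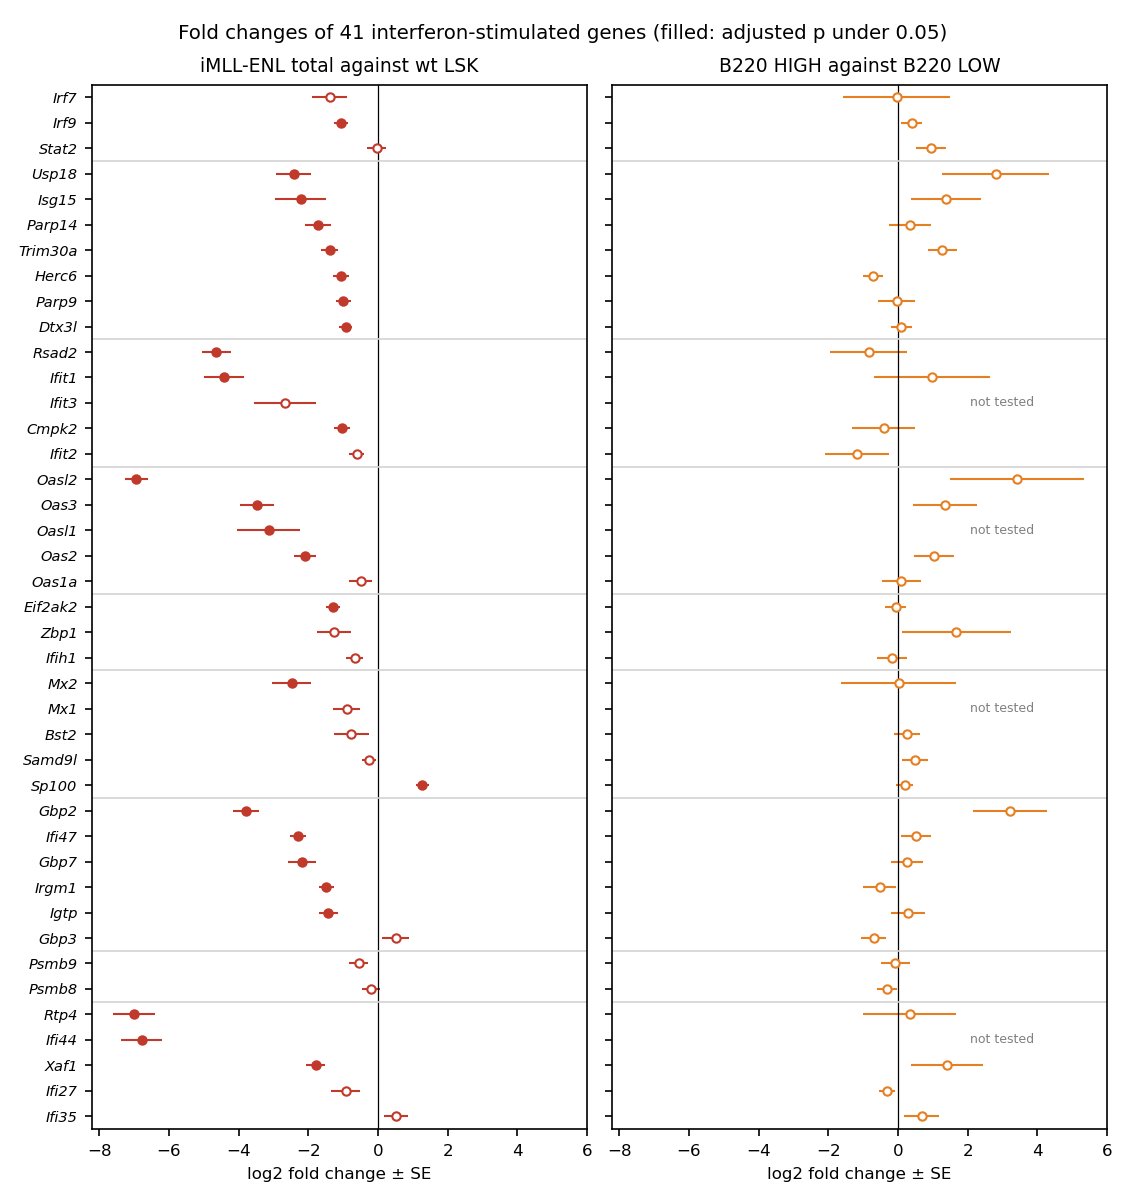
Log2 fold changes with SE of the 41 members (rows, grouped by role in the same order as in the heat map), in iMLL-ENL total against wt LSK on the left and B220 HIGH against B220 LOW on the right. Filled points have an adjusted p under 0.05: 25 lie left of 0 and 1, Sp100, right of it on the left, and none are filled on the right, where 4 members were not tested.

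The largest falls were in Rtp4, Oasl2 and Ifi44. Rtp4, which encodes a chaperone of receptors on their way to the cell surface, had 0.741, 0.167 and 0.132 CPM in iMLL-ENL total, against 52.8, 57.8 and 41.6 CPM in wt LSK. Oasl2, of the oligoadenylate synthetase family, had 1.71, 0.778 and 1.01 CPM in iMLL-ENL total, against 167, 168 and 148 CPM in wt LSK. Ifi44, whose product restrains the growth of infected cells, had 0.463, 1.89 and 0.440 CPM in iMLL-ENL total, against 131, 95.02 and 106 CPM in wt LSK. In all 3 genes the groups were far apart. Replicate 1 was the highest iMLL-ENL total library for Rtp4 and Oasl2 and replicate 2 for Ifi44. Rtp4 was 129-fold lower (log2 fold change -7.01, SE 0.60, adjusted p = 0.000115), and -8.19 on the log2 scale without iMLL-ENL total replicate 1. Oasl2 was 123-fold lower (-6.94, SE 0.33, adjusted p = 1.37e-05). Ifi44 was 110.2-fold lower (-6.78, SE 0.58, adjusted p = 0.000119), and -7.76 on the log2 scale without iMLL-ENL total replicate 2. Rtp4 overlaps Masp1 in the annotation, and the library kit kept no strand, so its counts are uncertain.

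**Figure D2:**
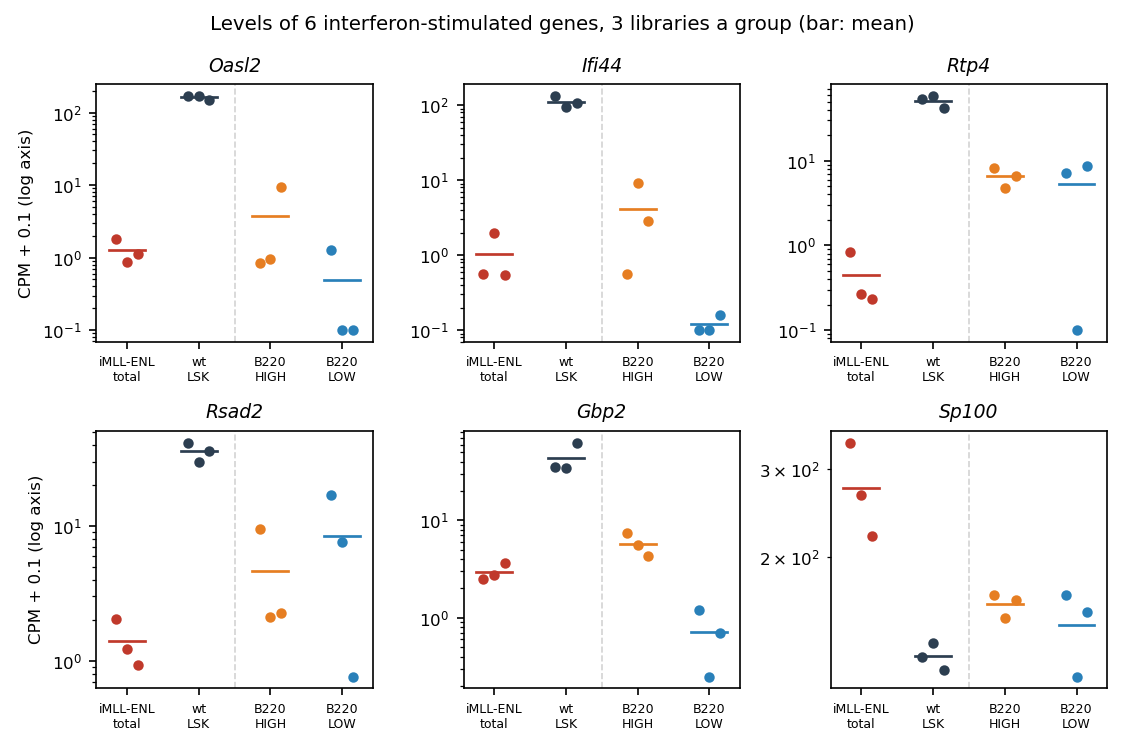
CPM plus 0.1 on a log axis for Oasl2, Ifi44, Rtp4, Rsad2, Gbp2 and Sp100 in each library (points, replicates 1 to 3 from left to right) with the group mean (bar). The dashed line parts the 2 count tables. For every gene but Sp100 the wt LSK points lie above all others, and for Sp100 the iMLL-ENL total points lie above all others.

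Of the transcription factors that drive the response, Irf9 fell and Stat2 and Irf7 did not pass the test. Irf9, the DNA-binding partner of STAT2, had 42.1, 41.2 and 46.2 CPM in iMLL-ENL total, against 115, 91.2 and 94.0 CPM in wt LSK. The groups were apart and Irf9 was lower (log2 fold change -1.07, SE 0.20, adjusted p = 0.00521). Stat2 had 65.1, 39.7 and 64.0 CPM in iMLL-ENL total, against 60.0, 80.8 and 53.8 CPM in wt LSK, and the groups overlapped (-0.04, SE 0.26, adjusted p = 0.914). Its sign turned without iMLL-ENL total replicate 2 (0.16) or wt LSK replicate 2 (0.05). Irf7, which amplifies type I interferon production, had 3.61, 2.28 and 1.59 CPM in iMLL-ENL total, against 7.14, 9.98 and 4.49 CPM in wt LSK. Those groups did not overlap but the test was not passed (-1.38, SE 0.50, adjusted p = 0.0682). Irf7 was called lower with DESeq2 (-1.44, adjusted p = 0.0228) and with iMLL-ENL total replicate 1 left out (-1.72, adjusted p = 0.0475).

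All 7 members of the ISG15 system and the ubiquitin ligases were lower. Trim30a, a TRIM family member that restrains Toll-like receptor signaling in the mouse, had 84.2, 54.5 and 94.7 CPM in iMLL-ENL total, against 223, 218 and 236 CPM in wt LSK. Dtx3l, a ubiquitin ligase that works as a pair with Parp9, had 115, 94.2 and 129 CPM in iMLL-ENL total, against 233, 235 and 248 CPM in wt LSK. Usp18, which removes ISG15 from proteins and damps the type I receptor, had 3.98, 1.17 and 2.25 CPM in iMLL-ENL total, against 16.9, 10.9 and 15.8 CPM in wt LSK. No iMLL-ENL total library reached the lowest wt LSK library in any of the 3. The log2 fold changes were -1.38 for Trim30a (SE 0.24, adjusted p = 0.00317), -0.93 for Dtx3l (SE 0.19, adjusted p = 0.00663) and -2.42 for Usp18 (SE 0.50, adjusted p = 0.00780). Herc6, the main ligase that attaches ISG15 in the mouse, Parp9 and the ADP-ribosyltransferase Parp14 fell by 1.06, 0.99 and 1.73 on the log2 scale. Parp14 was at -2.32 without iMLL-ENL total replicate 3, and Parp9 missed the threshold without wt LSK replicate 3 (-0.89, adjusted p = 0.0548). Dtx3l and Parp9 are neighbors whose annotated spans overlap, and Trim30a, Usp18 and Herc6 each overlap another annotated gene.

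Isg15 itself, the ubiquitin-like modifier, was one of the scarcest members. It had 0.185, 0.389 and 0.440 CPM in iMLL-ENL total, against 2.47, 1.87 and 0.969 CPM in wt LSK, from 21 and 99 counts in all. The groups did not overlap, and Isg15 just passed the test (-2.22, SE 0.73, adjusted p = 0.0490). Leaving out any 1 of the 6 libraries ended that call, with adjusted p from 0.0719 without iMLL-ENL total replicate 2 to 0.191 without wt LSK replicate 1 and estimates from -2.54 to -1.90. Isg15 overlaps Gm46878 in the annotation.

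In the IFIT family and its neighbors in function, 3 of 5 members were lower. Rsad2 (viperin), which makes a nucleotide that stops viral polymerases, had 1.95, 1.11 and 0.837 CPM in iMLL-ENL total, against 41.4, 29.8 and 35.7 CPM in wt LSK. Ifit1, which binds viral RNA that lacks the host's cap marks, had 2.36, 0.389 and 1.45 CPM in iMLL-ENL total, against 35.7, 31.2 and 34.0 CPM in wt LSK. Both genes varied little among wt LSK libraries, and each iMLL-ENL total library was far below them. Rsad2 was 24.9-fold lower (log2 fold change -4.64, SE 0.41, adjusted p = 0.000133) and Ifit1 was 21.4-fold lower (-4.42, SE 0.57, adjusted p = 0.000812). Cmpk2, a mitochondrial nucleotide kinase gene beside Rsad2 on chromosome 12, fell less. It had 18.2, 21.7 and 22.7 CPM in iMLL-ENL total, against 50.3, 43.6 and 49.2 CPM in wt LSK (-1.04, SE 0.23, adjusted p = 0.00983, and 0.0513 without wt LSK replicate 3). Ifit2 had 35.4, 30.6 and 27.0 CPM in iMLL-ENL total, against 46.6, 50.1 and 60.8 CPM in wt LSK, apart but short of the threshold (-0.61, SE 0.21, adjusted p = 0.0608). Ifit3 had 0.0463, 0.556 and 0.176 CPM in iMLL-ENL total, against 1.504, 1.59 and 2.40 CPM in wt LSK, also apart and also short of it (-2.67, SE 0.88, adjusted p = 0.0501). Ifit3 passed with DESeq2 (adjusted p = 0.0296), RLE factors (0.0474), library totals alone (0.0422) and limma-voom (0.0256), and with iMLL-ENL total replicate 2 left out (-3.79, adjusted p = 0.0162). Ifit2 passed with DESeq2 (adjusted p = 0.0192), RLE factors (0.0436) and library totals alone (0.0339). Ifit1 overlaps Ifit1bl1 in the annotation, and Ifit3 has the near-identical copy Ifit3b, so reads may be split between copies.

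Among the oligoadenylate synthetases, enzymes whose product switches on RNase L, and their relatives without that activity, 4 of 5 were lower. Oas3 had 5.19, 2.28 and 8.02 CPM in iMLL-ENL total, against 81.3, 43.7 and 66.7 CPM in wt LSK. Oas2 had 20.2, 16.6 and 13.1 CPM in iMLL-ENL total, against 104, 55.8 and 74.3 CPM in wt LSK. In both genes replicate 2 was the lowest of the wt LSK libraries and still stood well above each leukemic library. The log2 fold changes were -3.47 for Oas3 (SE 0.49, adjusted p = 0.00133) and -2.10 for Oas2 (SE 0.31, adjusted p = 0.00155). Oasl1, which in the mouse holds back translation of Irf7, had 2.22, 0.0556 and 0.573 CPM in iMLL-ENL total, against 9.72, 10.7 and 7.60 CPM in wt LSK. Its call (-3.14, SE 0.91, adjusted p = 0.0311) ended without iMLL-ENL total replicate 3 (adjusted p = 0.0766) or without wt LSK replicate 1 (0.0941), 2 (0.0841) or 3 (0.0708), and its estimate was -4.62 without iMLL-ENL total replicate 1. Oas1a had 11.6, 6.89 and 8.37 CPM in iMLL-ENL total, against 14.2, 11.4 and 16.01 CPM in wt LSK, with overlap (-0.49, SE 0.33, adjusted p = 0.309). Oas1a belongs to a cluster of close copies on chromosome 5, among which reads could be split.

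Eif2ak2 was the only called gene among the 3 sensors of foreign nucleic acid. Eif2ak2 (PKR), a kinase that stops translation when it meets double-stranded RNA, had 70.7, 58.5 and 57.9 CPM in iMLL-ENL total, against 173, 147 and 187 CPM in wt LSK (-1.29, SE 0.19, adjusted p = 0.00163). Ifih1 (MDA5), a sensor of long double-stranded RNA, had 90.8, 84.7 and 56.2 CPM in iMLL-ENL total, against 142, 109 and 155 CPM in wt LSK (-0.67, SE 0.24, adjusted p = 0.0671). Zbp1, which starts necroptosis on binding Z-form nucleic acid, had 2.78, 1.33 and 2.69 CPM in iMLL-ENL total, against 3.97, 6.53 and 7.80 CPM in wt LSK (-1.26, SE 0.50, adjusted p = 0.0896). The groups did not overlap in any of these genes, and each of the uncalled genes passed under some alternatives. Ifih1 passed with DESeq2 (adjusted p = 0.0280), RLE factors (0.0490) and library totals alone (0.0344), and with wt LSK replicate 2 left out (-0.88, adjusted p = 0.0443). Zbp1 passed with DESeq2 (adjusted p = 0.0440). Eif2ak2 and Ifih1 each overlap annotated genes that carry no functional name.

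The restriction factors went different ways. Sp100, a protein of nuclear bodies that silences viral genomes, had 338, 266 and 220 CPM in iMLL-ENL total, against 126, 134 and 119 CPM in wt LSK. Each iMLL-ENL total library was above each wt LSK library, and Sp100 was the 1 member that rose (1.27, SE 0.19, adjusted p = 0.00180). Mx2, a dynamin-like GTPase, had 0.695, 1.67 and 2.16 CPM in iMLL-ENL total, against 11.65, 10.2 and 6.53 CPM in wt LSK. Mx2 was lower (-2.48, SE 0.55, adjusted p = 0.0100), but missed the threshold without wt LSK replicate 1 (-2.31, adjusted p = 0.0509). Mx1, whose allele in C57BL/6 mice is known to encode no working protein, had 10.5, 5.22 and 8.98 CPM in iMLL-ENL total, against 12.03, 25.2 and 14.7 CPM in wt LSK. Its groups were narrowly apart and it did not pass (-0.90, SE 0.39, adjusted p = 0.121). Bst2 (tetherin), which holds budding virus on the cell, had 6.81, 18.9 and 5.68 CPM in iMLL-ENL total, against 14.5, 29.2 and 16.01 CPM in wt LSK (-0.77, SE 0.50, adjusted p = 0.287), and passed without iMLL-ENL total replicate 2 (-1.50, adjusted p = 0.0180). Samd9l, an inhibitor of growth and of translation, had 125, 175 and 134 CPM in iMLL-ENL total, against 208, 179 and 189 CPM in wt LSK (-0.26, SE 0.20, adjusted p = 0.357).

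Of the 6 GTPases that attack the vacuoles of intracellular microbes, 5 were lower, and these are genes known to respond strongly to interferon gamma. Gbp2 had 2.41, 2.67 and 3.52 CPM in iMLL-ENL total, against 35.6, 34.1 and 62.6 CPM in wt LSK. Ifi47 had 23.6, 37.4 and 25.6 CPM in iMLL-ENL total, against 132, 168 and 173 CPM in wt LSK. Irgm1, a regulator of the other IRG proteins and of autophagy, had 23.3, 20.5 and 16.8 CPM in iMLL-ENL total, against 60.1, 65.2 and 63.0 CPM in wt LSK. The groups were apart in all 3, with wt LSK replicate 3 the highest for Gbp2. The log2 fold changes were -3.78 for Gbp2 (SE 0.37, adjusted p = 0.000228), -2.29 for Ifi47 (SE 0.24, adjusted p = 0.000304) and -1.48 for Irgm1 (SE 0.21, adjusted p = 0.00128). Igtp and Gbp7 fell by 1.42 and 2.18 on the log2 scale, and Gbp7 was at -2.81 without iMLL-ENL total replicate 1. Gbp3, beside Gbp2 and Gbp7 on chromosome 3, had 121, 69.2 and 36.2 CPM in iMLL-ENL total, against 46.6, 67.4 and 62.2 CPM in wt LSK. Gbp3's leukemic libraries lay on both sides of wt LSK, and it did not pass (0.51, SE 0.38, adjusted p = 0.343). Ifi47, Gbp2 and Gbp3 each overlap another annotated gene.

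Neither immunoproteasome subunit passed the test. Psmb8 had 78.6, 93.8 and 65.5 CPM in iMLL-ENL total, against 68.1, 140 and 99.5 CPM in wt LSK (-0.20, SE 0.26, adjusted p = 0.594). Psmb9 had 39.2, 40.0 and 31.0 CPM in iMLL-ENL total, against 38.2, 82.4 and 60.1 CPM in wt LSK (-0.55, SE 0.27, adjusted p = 0.166). The groups overlapped in both, and wt LSK replicate 2 was the highest library. Beside Rtp4 and Ifi44, Xaf1, a proapoptotic partner of XIAP, was lower too, with 10.7, 7.72 and 8.94 CPM in iMLL-ENL total, against 31.5, 40.7 and 33.3 CPM in wt LSK (-1.79, SE 0.26, adjusted p = 0.00144). Ifi35 had 16.1, 20.7 and 13.5 CPM in iMLL-ENL total, against 9.72, 18.9 and 10.6 CPM in wt LSK (0.52, SE 0.34, adjusted p = 0.283). Ifi27 had 24.5, 58.3 and 18.5 CPM in iMLL-ENL total, against 65.8, 93.7 and 56.0 CPM in wt LSK (-0.93, SE 0.42, adjusted p = 0.127), and passed without iMLL-ENL total replicate 2 (-1.57, adjusted p = 0.00363). The groups of Ifi35 and Ifi27 overlapped, and Ifi27 overlaps its relative Ifi27l2a in the annotation.

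The members also stood in a different order. Per kilobase of the deposited gene width, the most abundant in iMLL-ENL total were Sp100 at 86.1 ± 18.7 CPM per kb, Psmb8 at 64.9 ± 11.6 and Psmb9 at 45.6 ± 6.21 (SD, n = 3). In wt LSK they were Psmb8 at 83.7 ± 29.3 CPM per kb, Ifi47 at 78.3 ± 10.98, Psmb9 at 74.7 ± 27.4 and Ifi27 at 68.2 ± 18.6, which did not differ beyond their spread. Oasl2 ranked 37 of 41 in iMLL-ENL total, at 0.373 ± 0.155 CPM per kb, and 6 of 41 in wt LSK, at 51.4 ± 3.52. Ifi44 ranked 38 in iMLL-ENL total and 11 in wt LSK, and Rtp4 ranked 40 in iMLL-ENL total and 13 in wt LSK. Sp100 ranked 1 in iMLL-ENL total and 8 in wt LSK, at 39.7 ± 2.47 CPM per kb. Ifit3 was last in both groups, with 0.130 ± 0.132 CPM per kb in iMLL-ENL total and 0.916 ± 0.247 in wt LSK.

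Members with and without the response element core printed above both contained genes that fell. Of the 16 members with the core in their window, 10 were called lower and none higher in iMLL-ENL total, with a median log2 fold change of -1.45. Of the 16 with a window and no core, 9 were called lower and 1 higher, with a median of -1.05. Oasl2 (-6.94) and Ifi44 (-6.78) were among those 9. These counts describe the windows and were not tested, and a window without the letters says nothing of elements elsewhere.

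**Figure D3:**
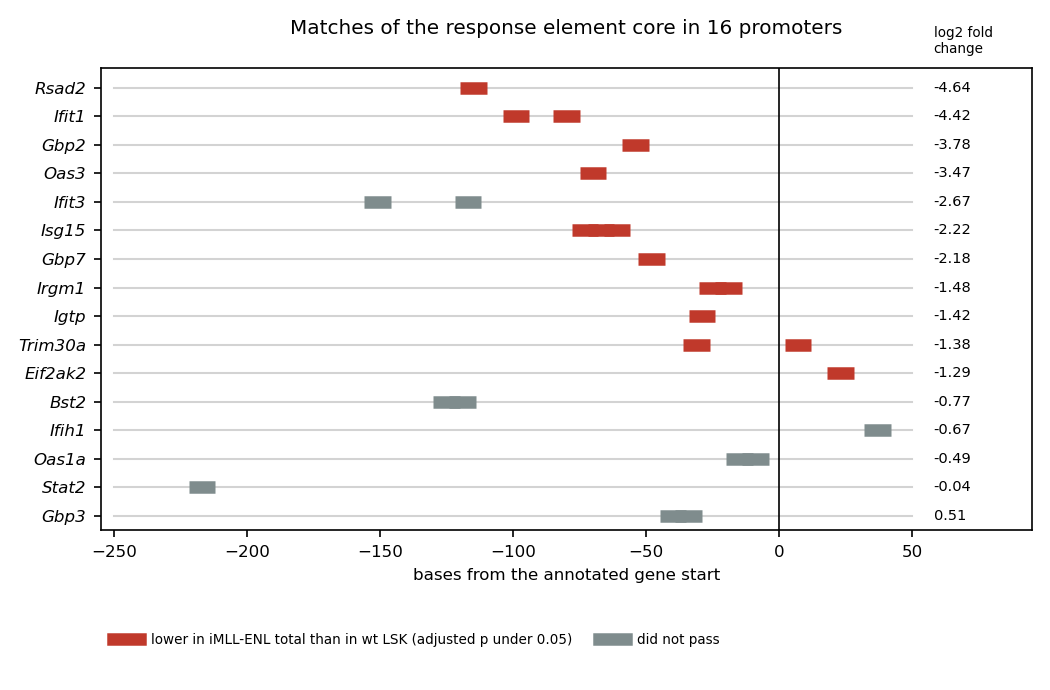
Position of each match of the response element core on either strand in the promoter windows of the 16 members that hold one (rows, ordered by log2 fold change in iMLL-ENL total against wt LSK, printed at the right), in bases from the annotated start. Red matches belong to the 10 members called lower and grey ones to those that did not pass, and most lie before the start.

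Upstream of the members, 4 of 10 receptor chains, kinases and STATs tested were higher in iMLL-ENL total and none was lower by the main test, while Jak1 was called lower under several alternatives. With the replicate block 2 were higher and 1 was lower. The shares over all genes tested were 15.5% higher and 15.1% lower by the main test, and nothing particular to this short list is read from it. Ifnar1 had 106, 62.4 and 131 CPM in iMLL-ENL total, against 92.2, 116 and 92.4 CPM in wt LSK (0.16, SE 0.28, adjusted p = 0.709), with a sign that turned without iMLL-ENL total replicate 3 (-0.17). Ifnar2 had 219, 237 and 167 CPM in iMLL-ENL total, against 181, 255 and 183 CPM in wt LSK (0.17, SE 0.20, adjusted p = 0.570). The groups overlapped in both genes, and the tests were not passed. Ifngr1, the ligand-binding chain of the interferon gamma receptor, had 379, 523 and 431 CPM in iMLL-ENL total, against 68.3, 99.7 and 82.2 CPM in wt LSK (2.58, SE 0.21, adjusted p = 9.62e-05). Ifngr2, its signaling partner, had 55.7, 73.4 and 68.6 CPM in iMLL-ENL total, against 22.0, 41.6 and 25.3 CPM in wt LSK (1.32, SE 0.27, adjusted p = 0.00698). Both chains thus rose, with every iMLL-ENL total library above every wt LSK library.

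Jak1 had 317, 284 and 377 CPM in iMLL-ENL total, against 538, 507 and 531 CPM in wt LSK, and just missed the threshold (-0.54, SE 0.19, adjusted p = 0.0605). Jak1 was called lower with DESeq2 (adjusted p = 0.0304), library totals alone (0.0169), limma-voom (0.0446) and the replicate block (0.0463), and with iMLL-ENL total replicate 3 left out (-0.73, adjusted p = 0.0212). Tyk2 had 65.3, 44.1 and 74.6 CPM in iMLL-ENL total, against 42.3, 49.2 and 46.3 CPM in wt LSK (0.58, SE 0.24, adjusted p = 0.104), and passed without iMLL-ENL total replicate 2 (0.78, adjusted p = 0.0157). Jak1's groups were apart and Tyk2's overlapped. Ifnlr1, the receptor chain for lambda interferons, had 7.69, 2.89 and 29.5 CPM in iMLL-ENL total, against 0, 1.43 and 0 CPM in wt LSK. Its call (5.03, SE 1.53, adjusted p = 0.0403) ended without iMLL-ENL total replicate 2 (adjusted p = 0.0525) or 3 (0.129) or wt LSK replicate 1 (0.105) or 3 (0.103), and its estimate was 11.12 without wt LSK replicate 2. The fourth called gene was Il10rb, the chain that pairs with Ifnlr1 (0.73, adjusted p = 0.0483). The calls of Ifnlr1 and Il10rb both ended with the replicate block.

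**Figure D4:**
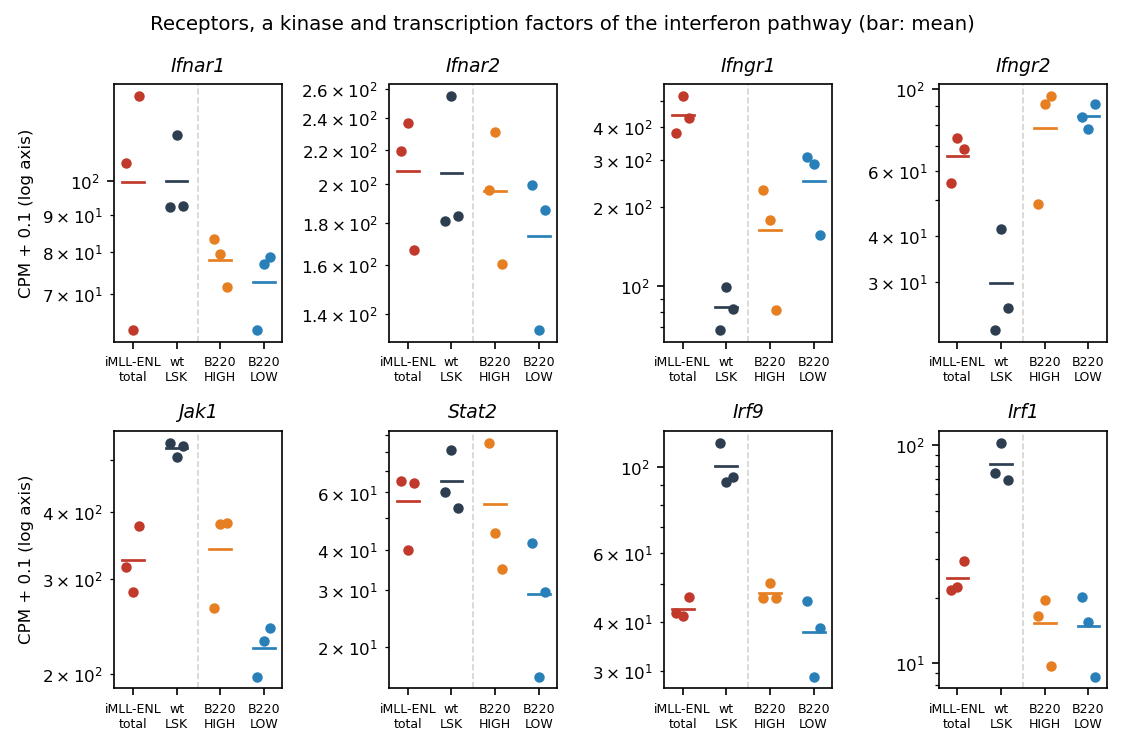
CPM plus 0.1 on a log axis, with a range set for each gene, for receptor chains, the kinase gene Jak1 and transcription factors of the pathway in each library (points, replicates 1 to 3 from left to right) with the group mean (bar). The dashed line parts the 2 count tables. Points of iMLL-ENL total lie above those of wt LSK for Ifngr1 and Ifngr2, below them for Jak1, Irf9 and Irf1, and among them for Ifnar1, Ifnar2 and Stat2.

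Over all genes tested 15.1% were called lower and 15.5% higher, the lists that follow are short, and nothing particular to a list is read from them. Of 7 interferon regulatory factors outside the list, 2 were lower and 1 was higher in iMLL-ENL total. Irf1, which carries much of the response to interferon gamma, had 21.6, 22.4 and 29.3 CPM in iMLL-ENL total, against 74.6, 103 and 69.4 CPM in wt LSK (-1.59, SE 0.24, adjusted p = 0.00177). Irf2, its antagonist at many promoters, had 50.2, 51.7 and 49.6 CPM in iMLL-ENL total, against 87.4, 113 and 100.4 CPM in wt LSK (-0.83, SE 0.18, adjusted p = 0.00814). The groups were well apart in both. Irf5 was higher (0.96, SE 0.28, adjusted p = 0.0305), a call that ended without iMLL-ENL total replicate 3 (0.61, adjusted p = 0.0959) or any 1 wt LSK library (adjusted p 0.143, 0.0649 and 0.116 without replicates 1, 2 and 3). Of 14 nucleic acid sensors and adaptors, 4 were higher and 2 lower. Ddx58 (RIG-I), the sensor of short double-stranded RNA, had 45.6, 33.0 and 41.2 CPM in iMLL-ENL total, against 147, 110.1 and 131 CPM in wt LSK (-1.55, SE 0.22, adjusted p = 0.00142). Unc93b1, which escorts Toll-like receptors to endosomes, was higher (1.87, SE 0.43, adjusted p = 0.0120, and 0.0665 or 0.0520 without wt LSK replicate 1 or 3). Myd88, their adaptor, was higher too (1.19, SE 0.29, adjusted p = 0.0162), but not without iMLL-ENL total replicate 3 (adjusted p = 0.0506) or wt LSK replicate 1 (0.0791) or 2 (0.0769).

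Among 12 inhibitors of interferon signaling tested, 2 were higher and 1 lower. The phosphatase gene Ptpn6 (SHP-1) had 166, 198 and 266 CPM in iMLL-ENL total, against 72.5, 97.1 and 81.2 CPM in wt LSK (1.49, SE 0.23, adjusted p = 0.00196). Ptpn1, whose phosphatase acts on JAK2 and TYK2, had 109, 88.4 and 117 CPM in iMLL-ENL total, against 53.7, 57.0 and 50.5 CPM in wt LSK (1.12, SE 0.19, adjusted p = 0.00330). The groups were apart for both phosphatases. Socs3 was lower (-2.79, SE 0.74, adjusted p = 0.0226), but not without iMLL-ENL total replicate 3 (adjusted p = 0.0504) or wt LSK replicate 1 (0.0910) or 2 (0.0574). The interferon genes themselves had few counts or none. Of 11 listed, Ifnk alone passed the filter on low counts, and it did not differ past the threshold (0.23). Ifng had 37 counts in iMLL-ENL total and 4 in wt LSK, and the 9 others had 0 counts in both groups, which allows up to 0.0482 CPM in iMLL-ENL total, against 0.0531 CPM in wt LSK. These limits are 3 counts over the group's libraries and cover counting error only.

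The sorted leukemic fractions stand in the other count table, so they were set beside the first groups by CPM with no test. In 27 of the 41 members all 9 leukemic libraries were below all 3 wt LSK libraries, and in none were all 9 above, while 17.2% of all genes had the leukemic libraries below. The members summed to 1632, 1529 and 1394 CPM in B220 HIGH and 1829, 1130 and 1476 CPM in B220 LOW, near the sums of iMLL-ENL total. Of the group means, that of wt LSK was the highest for 34 members. The exceptions were Sp100, highest in iMLL-ENL total, Isg15, Bst2 and Ifi35, highest in B220 HIGH, and Psmb8, Gbp3 and Ifi27, highest in B220 LOW. Bst2 had 36.6, 69.4 and 68.3 CPM in B220 HIGH and 49.96, 54.0 and 48.8 CPM in B220 LOW, all above the highest wt LSK library. Isg15 had 6.04, 1.94 and 5.71 CPM in B220 HIGH and 1.90, 0.670 and 2.83 CPM in B220 LOW. Rtp4, lowest in iMLL-ENL total, had 8.06, 4.68 and 6.57 CPM in B220 HIGH and 7.01, 0 and 8.66 CPM in B220 LOW, still below wt LSK.

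**Figure D5:**
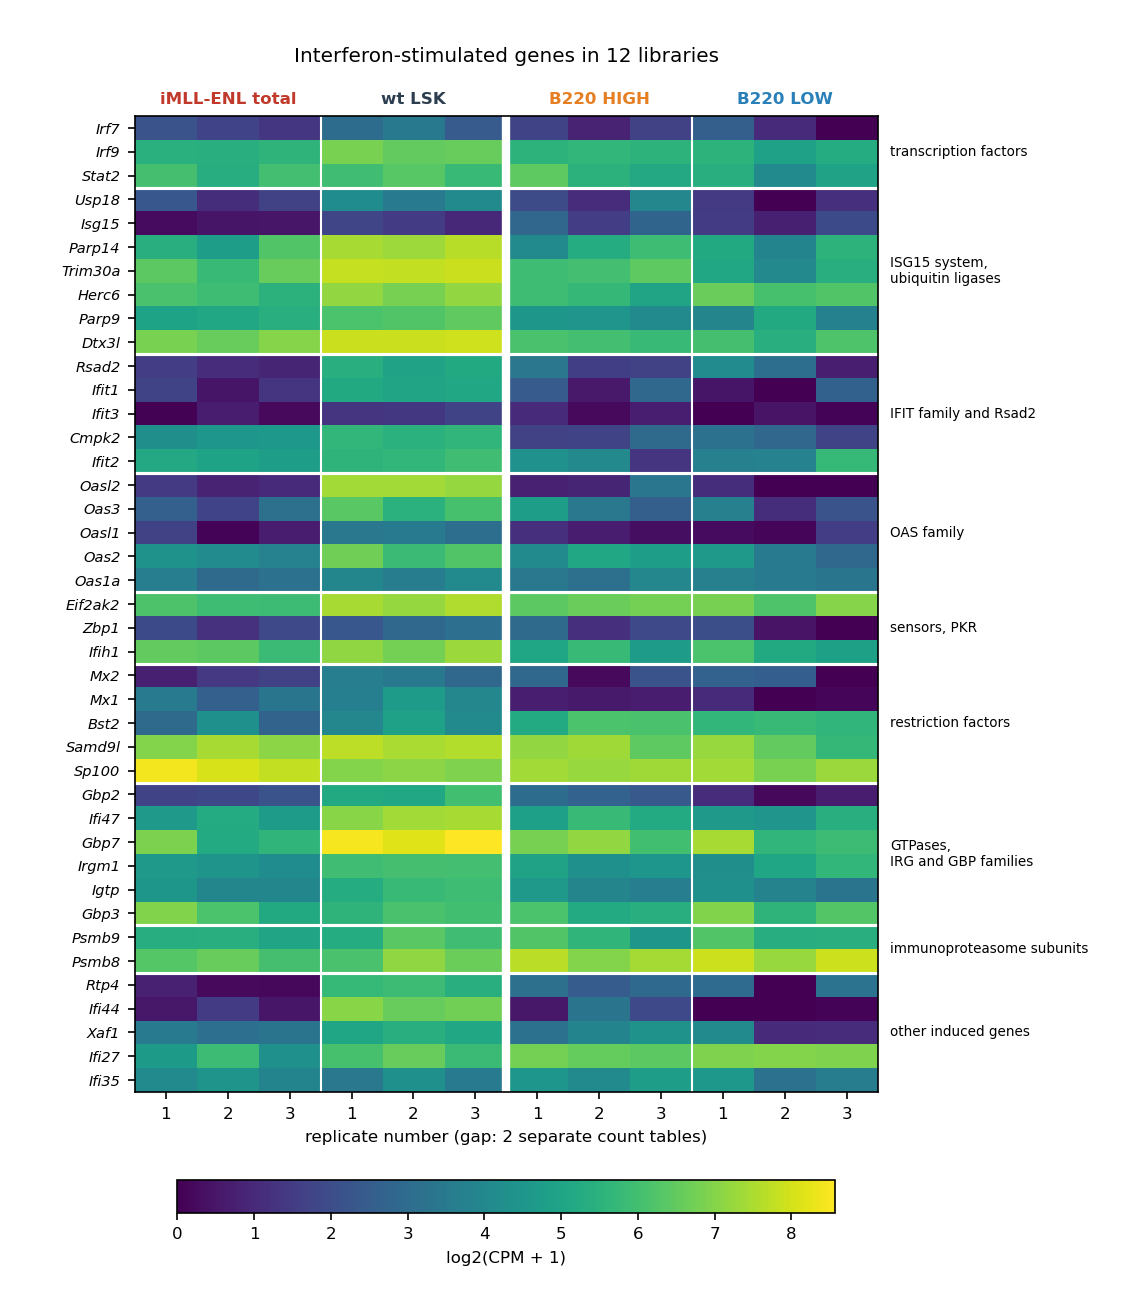
Heat map of log2(CPM + 1) for the 41 members (rows, grouped by role) in the 12 libraries (columns, replicates 1 to 3 of each group, with a gap between the 2 count tables). The wt LSK columns are the brightest for most rows, while the Sp100 row is brightest in iMLL-ENL total and the Bst2 and Psmb8 rows are brighter in the sorted leukemic fractions.

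Between B220 HIGH and B220 LOW, no member passed the test. Of the 41, 37 passed the filter on low counts, and Ifit3, Mx1, Oasl1 and Ifi44 did not. With edgeR 0 of the 37 were called, as were 0 of 12564 genes (0%), and 3 members and 880 genes had an unadjusted p under 0.05. DESeq2 called 232 genes and limma-voom 1, none of them members. With the replicate number as a block, 79 genes (0.629%) and no member were called. The members' median log2 fold change was 0.26, against -0.03 over all genes. The groups did not overlap for 5 of the 37, against 13.4% of all genes in either direction. Irf9, Trim30a and Gbp2 were higher in every B220 HIGH library, and Herc6 and Ifi27 were lower. B220 LOW libraries had 2, 6 and 4 members at 0 counts and no other library had any. Summed levels of 6 B cell markers were 8.61 to 38.6 CPM in B220 HIGH, with none at 0, and 7.07 to 14.9 CPM in B220 LOW, with Pax5 at 0. Those of 8 plasmacytoid dendritic cell markers were 180.0 to 417 CPM in B220 HIGH, with none at 0, and 134 to 278 CPM in B220 LOW, with Klk1 at 0. Those of 7 myeloid markers, none at 0, were 497 to 15430 CPM in B220 HIGH and 1540 to 6306 CPM in B220 LOW. Those 3 ranges overlapped between the fractions. Tcf4 made up most of the plasmacytoid dendritic cell sums, with 171, 295 and 331 CPM in B220 HIGH and 159, 116 and 270 CPM in B220 LOW. Within the myeloid list, markers went opposite ways. Itgam had 346, 1388 and 834 CPM in B220 HIGH, against 260, 153 and 207 CPM in B220 LOW. Elane had 27.9, 351 and 82.7 CPM in B220 HIGH, against 444, 2364 and 1389 CPM in B220 LOW. Neither passed the main test (edgeR adjusted p = 0.309 and 0.580). With the replicate block Elane and Mpo were called lower (adjusted p = 0.00235 and 0.000701), and Itgam was not called. All other myeloid markers overlapped. Ranges of the sums did not overlap for 6 stem cell and LSK markers, none at 0, with 201 to 379 CPM in B220 HIGH and 92.4 to 109 CPM in B220 LOW. Most of the B220 HIGH sum was Cd34 in replicates 1 and 3 (136 and 289 CPM) and Ly6a in replicate 2. Kit had 41.8, 40.3 and 7.28 CPM in B220 HIGH, against 53.3, 61.8 and 9.56 CPM in B220 LOW. Ranges were also apart for 5 macrophage markers, with 202 to 331 CPM in B220 HIGH and C1qa at 0, and 97.1 to 147 CPM in B220 LOW with C1qa and C1qb at 0. Adgre1 made up most of these B220 HIGH sums, while Vcam1 had 1.74, 141 and 2.43 CPM in B220 HIGH and 18.2, 125 and 85.5 CPM in B220 LOW. B220 HIGH replicate 2 stood apart in 5 T cell markers, which summed to 0.183, 30.3 and 1.87 CPM in B220 HIGH and 0.589, 1.12 and 0.782 CPM in B220 LOW. The same library was high in Siglech, a plasmacytoid dendritic cell marker (0.458, 66.7 and 2.02 CPM in B220 HIGH), and in Ly6a (10.5, 285 and 6.88 CPM in B220 HIGH). The part of these markers in the values below was not tested.

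The smallest p-values in the sorted fractions belonged to Gbp2, Trim30a and Herc6. Gbp2 had 7.23, 5.43 and 4.25 CPM in B220 HIGH and 1.11, 0.149 and 0.601 CPM in B220 LOW (3.22, SE 1.06, adjusted p = 0.536). Trim30a had 58.4, 63.8 and 86.3 CPM in B220 HIGH and 33.1, 15.5 and 41.8 CPM in B220 LOW (1.27, SE 0.42, adjusted p = 0.540). Herc6 had 58.7, 51.3 and 31.0 CPM in B220 HIGH and 96.9, 66.4 and 75.4 CPM in B220 LOW (-0.72, SE 0.29, adjusted p = 0.686). The libraries of each gene did not overlap, with unadjusted p of 0.0144, 0.0155 and 0.0359. With the replicate block the estimates were 3.47, 1.34 and -0.75, with edgeR adjusted p of 0.280, 0.157 and 0.328, so none passed.

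Among scarce members, single sorted libraries stood out. Oasl2 had 0.733, 0.847 and 9.25 CPM in B220 HIGH and 1.18, 0 and 0 CPM in B220 LOW (3.42, SE 1.93, adjusted p = 0.804). Usp18 had 2.93, 1.15 and 14.7 CPM in B220 HIGH and 1.77, 0 and 1.203 CPM in B220 LOW (2.80, SE 1.53, adjusted p = 0.8002). For both, replicate 3 was the high B220 HIGH library. Without it the estimates were 1.13 for Oasl2 and 1.04 for Usp18, and Oasl2 was at 8.94 without B220 LOW replicate 1. Ifi44 had 0.458, 8.92 and 2.73 CPM in B220 HIGH and 0, 0 and 0.0601 CPM in B220 LOW, with the highest level in replicate 2, the library that stood apart in T cell markers. From 238 counts in B220 HIGH and 1 in B220 LOW, the ratio was 213, with an exact binomial 95% interval of 37.8 to 8431 that covers counting error only. Ifit1 had 4.49, 0.498 and 6.27 CPM in B220 HIGH and 0.393, 0 and 5.29 CPM in B220 LOW (0.97, SE 1.67, adjusted p = 0.959). Rsad2 had 9.43, 1.99 and 2.17 CPM in B220 HIGH and 16.8, 7.51 and 0.662 CPM in B220 LOW (-0.84, SE 1.10, adjusted p = 0.938). The groups of Ifit1 and Rsad2 overlapped. Taken by number, Ifit1 was higher in B220 HIGH in each of the 3 pairs, with an estimate of 2.53 with the replicate block (adjusted p = 0.517), and it ranged from 0.26 without B220 HIGH replicate 3 to 4.36 without B220 LOW replicate 3.

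The remaining members gave estimates between -1.18 for Ifit2 (SE 0.91, adjusted p = 0.873) and 1.68 for Zbp1 (SE 1.56, adjusted p = 0.900). Among transcription factors Stat2 had 85.3, 45.0 and 34.8 CPM in B220 HIGH and 41.8, 16.1 and 29.5 CPM in B220 LOW (0.94, SE 0.43, adjusted p = 0.724). The groups of Stat2 overlapped, while those of Irf9 were apart (0.39, SE 0.31, adjusted p = 0.873), and Irf7 was at -0.04 (SE 1.54, adjusted p = 0.997). Oas2 and Oas3 were at 1.04 (SE 0.57, adjusted p = 0.798) and 1.34 (SE 0.92, adjusted p = 0.864). Among the GTPases Gbp3 was at -0.70 (SE 0.37, adjusted p = 0.785) and Ifi47 at 0.52 (SE 0.44, adjusted p = 0.888). Ifih1 and Eif2ak2 were at -0.17 (SE 0.43, adjusted p = 0.976) and -0.06 (SE 0.30, adjusted p = 0.985). Samd9l was at 0.49 (SE 0.37, adjusted p = 0.873), Bst2 at 0.26 (SE 0.36, adjusted p = 0.939) and Sp100 at 0.19 (SE 0.24, adjusted p = 0.932). Psmb8 and Psmb9 were at -0.31 (SE 0.28, adjusted p = 0.898) and -0.08 (SE 0.42, adjusted p = 0.989). Xaf1 and Ifi35 were at 1.41 (SE 1.04, adjusted p = 0.873) and 0.68 (SE 0.51, adjusted p = 0.873), and Ifi27 was at -0.31 (SE 0.23, adjusted p = 0.869). None of these estimates passed, and an SE above 1 on the log2 scale, as for the scarce members Zbp1 and Irf7, leaves the size and sign of a difference unresolved.

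Upstream genes gave no calls between the sorted fractions either. Ifnar1 was at 0.13 (SE 0.26), Ifnar2 at 0.23 (SE 0.25), Ifngr1 at -0.59 (SE 0.37) and Ifngr2 at -0.03 (SE 0.34). Tyk2 was at 0.49 (SE 0.41) and Irf1 at 0.11 (SE 0.52). Jak1 had 265, 380 and 382 CPM in B220 HIGH and 198, 230 and 243 CPM in B220 LOW, which did not overlap, and did not pass (0.67, SE 0.28, adjusted p = 0.692). The 9 interferon genes other than Ifnk and Ifng had 5 counts over the B220 HIGH libraries and 2 over the B220 LOW libraries.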

How the data were processed

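RNA of 12 libraries was prepared without keeping strand, per the labels' protocols. The deposited tables hold raw read counts for each NCBI gene ID, which the authors made with an aligner and counting tool not given in the sources used here. Per the submitters' processing notes, edgeR and the builds GRCm38 and mm10 were used. The authors' deposited gene width in bases (unit: other) served for levels per kilobase, and the deposited CPM tables were not used here. RefSeq (GRCm38.p6) gave symbols for 23968 of 24028 IDs and left 60 without one.

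Each comparison was made within one table with edgeR 4.0.16: TMM factors, filterByExpr with a minimum count of 10, the robust quasi-likelihood F test, two-sided p and Benjamini-Hochberg adjustment over all genes tested, with calls at an adjusted p under 0.05. Precision rests on 3 libraries per group. Alternatives were DESeq2 1.42.0, limma-voom (limma 3.58.1), other scalings, no filter, a fold change of at least 2, the replicate number as a block, and each library left out.

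The members and gene lists were chosen with earlier results of these data known. Every member is accounted for. In each comparison full statistics were given for the 3 members of each role with the smallest p and for the 5 largest rises and falls among called members, and for up to 3 called genes of each upstream list. Some genes that this choice takes in are not reported here. Other members' values and calls that changed with 1 library were added after values were seen. For B220 HIGH and B220 LOW, libraries with the same number deviated together from the group means, with correlations over genes of 0.397, 0.198 and 0.307. The numbers may therefore pair them, although the labels do not say so. The main test left this pairing out, and the replicate block took it in as an alternative. On simulated counts the test called 68.8% of 4-fold changes in the first comparison (13609 genes) and 39.7% in the second (12213 genes). Of 2-fold changes it called 4.48% and 4.69%. The simulation changed few genes, against 4221 called in the first comparison, so its rates do not carry over to these data.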

Additional observations from a re-analysis of the deposited data

How the results depend on the processing

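Of 533 values for the 41 members in iMLL-ENL total against wt LSK under alternatives, 485 kept their direction and side of the threshold, 28 lost a call, 18 gained one and 2 changed sign, both in Stat2 (0.16 at most with a library left out, -0.23 at least). When the fold change had to exceed 2, members called lower numbered 14 and members called higher 0, against 21 to 30 and 1 under the other settings. With that stricter test 868 genes were called higher and 1179 lower there. By the main test with 1 library left out, 1181 to 2253 genes were called higher and 1383 to 2275 lower. With library totals alone the median over all genes was -0.10, against 0.05 with TMM, the members' median was -1.53, and Ifnar1 was at -0.00 (-0.17 to 0.41 with a library left out). The replicate block ended the calls of Isg15 (adjusted p = 0.133), Ifnlr1 (0.158), Il10rb (0.0544) and Socs3 (0.101), and added Ifi27 (0.0211) and Jak1 (0.0463). In this comparison same-numbered libraries correlated at 0.0164, 0.160 and -0.0358, which does not show whether they share more than a number.

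Between B220 HIGH and B220 LOW no member was called under any alternative run. Of 481 values, 26 in 12 uncalled members changed sign. Irf7 was at 1.57 with limma-voom and 0.78 with the replicate block, Parp9 at 0.19 and 0.14, and Mx2 at -0.03 with library totals. With 1 library left out, ranges that crossed 0 were -0.61 to 1.76 for Irf7, -0.69 to 0.60 for Mx2, -1.81 to 0.07 for Rsad2, -0.24 to 0.29 for Oas1a, -0.55 to 0.22 for Ifih1, -0.25 to 1.05 for Rtp4, -0.30 to 0.64 for Parp9, -0.16 to 0.80 for Parp14, -0.10 to 0.36 for Dtx3l, -0.04 to 0.94 for Gbp7, -0.26 to 0.20 for Eif2ak2, -0.43 to 0.26 for Psmb9, -0.02 to 0.26 for Ifnar1, -0.22 to 0.26 for Ifngr2 and -0.13 to 0.35 for Irf1. Genes called higher and lower numbered 219 and 13 with DESeq2, 21 and 1 without the filter, 73 and 6 with the replicate block, and 1 and 0 with limma-voom, and 0 to 96 were called higher with 1 library left out, the most without B220 HIGH replicate 1. The cause of these changes was not tested. Depth limits the scarce members, such as Isg15, Ifit3 and Oasl1, with few counts per library.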

Other observations

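Other interferon-stimulated genes than the 41 were also more often called lower than higher. Of 57 further genes, 55 were tested in iMLL-ENL total against wt LSK, and 28 were lower and 6 higher. Over all genes tested, 15.1% were lower and 15.5% higher. The median log2 fold change of the further genes was -0.90. These genes too were chosen with earlier results of these data known. Ifi203, of the family of DNA-binding interferon-induced proteins, had 21.4, 26.5 and 22.0 CPM in iMLL-ENL total, against 383, 380.1 and 313 CPM in wt LSK (-3.79, SE 0.21, edgeR adjusted p = 1.44e-05). Cd274 (PD-L1), the ligand of the checkpoint receptor PD-1, had 25.5, 17.4 and 17.9 CPM in iMLL-ENL total, against 148, 156 and 125 CPM in wt LSK (-2.67, SE 0.22, adjusted p = 0.000111). Ifitm1, which blocks virus entry at membranes, had 1.16, 1.33 and 1.37 CPM in iMLL-ENL total, against 21.1, 54.3 and 27.4 CPM in wt LSK (-4.55, SE 0.43, adjusted p = 0.000197). The groups were apart in all 3 genes. The 6 that rose were Slfn1, Slfn2, Ms4a4c, Sp140, Ifi204 and Ms4a6b.

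Between B220 HIGH and B220 LOW none of these genes passed the main test, and with the replicate block Cd274 and Ifitm1 were called. Cd274 had 155, 228 and 373 CPM in B220 HIGH and 43.2, 17.4 and 53.3 CPM in B220 LOW, with no overlap (2.81, adjusted p = 0.181, and 2.83, adjusted p = 0.0153 with the replicate block). Ifitm1 had 71.9, 295 and 59.2 CPM in B220 HIGH and 23.3, 61.9 and 16.9 CPM in B220 LOW, with overlap (2.11, adjusted p = 0.600, and 1.94, adjusted p = 0.0107 with the replicate block).

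Over all genes tested, 15.1% were lower and 15.5% higher in iMLL-ENL total than in wt LSK. Of 13 genes of antigen processing and MHC class I, 6 were lower and none higher. Nlrc5, the transactivator of these genes, had 12.6, 13.3 and 9.56 CPM in iMLL-ENL total, against 107, 118 and 145 CPM in wt LSK (-3.23, SE 0.23, adjusted p = 5.90e-05). The class I heavy chain gene H2-K1 had 365, 402 and 224 CPM in iMLL-ENL total, against 1062, 1296 and 1163 CPM in wt LSK (-1.68, SE 0.23, adjusted p = 0.00122). H2-Q4 was lower as well (-2.60, SE 0.40, adjusted p = 0.00192), as were Tap1, B2m and H2-T23.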
